A study of Homo sapiens with 6 samples.

Results

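H2087-LCC cells kept in TGFβ for 7 days were compared with the same cells kept in SB505124 (SB), which blocks the kinase of the TGFβ type I receptor. H2087-LCC is a latency competent population that was selected in mice from a human lung adenocarcinoma (LUAD) cell line, so every library comes from 1 line. RNA-seq of polyadenylated RNA gave 2 libraries per group, and another group of 2 libraries had TGFβ for 3 days. SB stands for the state without signalling from TGFβ made by the cells themselves, and no genetic change separates the groups. SB cells were harvested at day 3, so in the comparison at 7 days treatment and time in culture cannot be told apart. The values at 3 days of TGFβ, which match SB in harvest day, are therefore given beside those at 7 days for some genes and lists, though not for all. Of 21293 genes listed, 14395 reached a mean of 10 normalized counts over the 6 libraries and were compared. Normalized counts are read counts scaled for library size and are not scaled for transcript length.

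TGFβ is a secreted dimeric cytokine that assembles type II and type I receptor kinases on the cell surface. The type I receptor phosphorylates SMAD2 and SMAD3, which join SMAD4 in the nucleus and act with other transcription factors on target genes. In epithelial cells the pathway is known for halting the cell cycle and for epithelial-to-mesenchymal transition (EMT), in which cell junctions are lost and matrix and its receptors are made. In the lung, TGFβ is also known as a driver of fibrosis and as a repressor of alveolar differentiation.

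The normalized counts summed to 34306283 to 36340734 per library. The spacing of the rounded values gave a rough estimate of 32000000 to 40000000 assigned reads. This estimate is uncertain, since the spacing pattern was matched only weakly (correlations of 0.115 to 0.309). The libraries of a group are described in the study as technical replicates, so the p-values may cover technical spread only. An exact two-sided permutation test of 2 libraries against 2 cannot give a p below 0.333, so all p-values come from limma, fitted across all genes and adjusted by the Benjamini-Hochberg method. The epithelial keratins KRT8, KRT18 and KRT19 and the surface protein EPCAM were present in every library, whereas defining markers of leukocytes (PTPRC, CD3E), red cells (HBB, HBA2), hepatocytes (ALB) and fibroblasts (DCN, LUM) were listed at no more than 4 normalized counts. The leukocyte gene CD14 was listed at no more than 8, and the endothelial gene PECAM1 at 36 to 67. The 2 SB libraries stood further apart than the other pairs. Among the 11285 genes with an SB mean of at least 100, 81 were over 2-fold higher in SB 2 than in SB 1 and 5 the other way round, while 6 genes differed that much within the 7-day pair. Of the 81 genes, 40 were called lower and 14 higher at 7 days. For some genes whose call turned on 1 SB library the value without it is given. Other genes given here only as not called may also depend on 1 SB library. What sets these libraries apart was not tested.

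After 7 days of TGFβ, most of the genes tested differed from SB. The call was made on 7851 of the 14395 genes (54.5%), with 3982 higher (27.7%) and 3869 lower (26.9%). In RNA of whole cultures, fewer cells with a transcript and less of it per cell cannot be told apart. The median log2 fold change over all genes was -0.001, and the median standard error of a fold change was 0.127. At matched harvest day, 3 days of TGFβ gave 4170 calls against SB (29%), and 7 days against 3 days gave 4775 (33.2%). These comparisons share libraries, so their values are set side by side only. Large changes were more often rises than falls. A log2 fold change over 1 was called for 1414 genes (9.82%) and one under -1 for 986 (6.85%), and beyond 4 there were 112 rises and 56 falls. The called share went from 40.2% among genes with a mean of 10 to 100 normalized counts to 72.3% among those over 10000, while the median standard error went from 0.33 to 0.084.

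**Figure D1:**
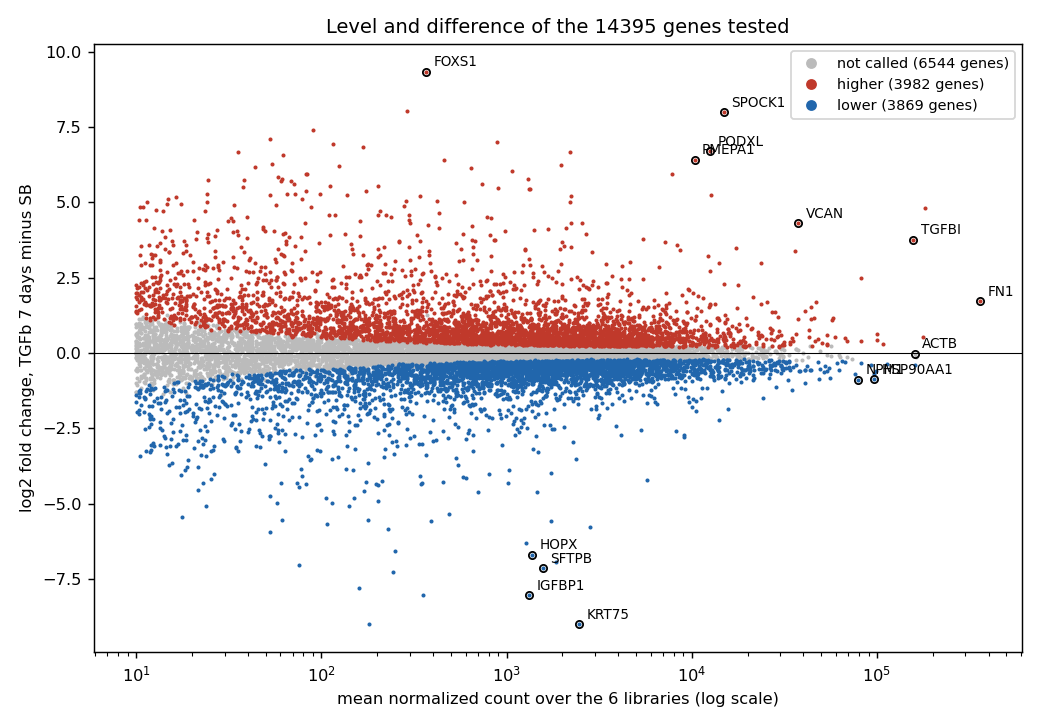
Each point is 1 of the 14395 genes tested, with its mean normalized count over the 6 libraries on a log axis and its log2 fold change of TGFβ for 7 days over SB on the vertical axis. The 3982 genes called higher and the 3869 called lower are coloured and named examples are circled. SPOCK1 and PODXL stand at 8.0 and 6.70, far above most genes of their level.

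The 3982 genes called higher took 23.8% and 24.8% of all normalized counts in the 2 SB libraries, and 40.7% and 40.8% in the 2 libraries at 7 days. The genes called lower went from 42.8% and 41.6% to 27.2% and 27.1%. Since the genes were grouped by their calls in these libraries, these shares describe the size of the change and test nothing. FN1, which encodes fibronectin, alone held 0.461% and 0.511% of the counts in SB and 1.56% and 1.51% at 7 days.

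FOXS1, a forkhead transcription factor gene (GRCh37 chr20:30432106-30433407, minus strand), had the largest rise at a mean of at least 100 and was at 1 and 0 normalized counts in SB, 136 and 210 after 3 days and 1077 and 779 after 7 days. Its log2 fold change at 7 days was 9.34 ± 0.34 (SE, adjusted p = 1.49e-09). SPOCK1 (chr5:136310987-136934068, minus strand) encodes testican, a secreted proteoglycan. It was at 150 and 111 in SB, 11884 and 11075 after 3 days and 32010 and 34421 after 7 days, a log2 fold change of 8.0 ± 0.12 (adjusted p = 2.41e-12). For both genes the 3 groups did not overlap and the level at 7 days was the highest. PODXL (chr7:131185021-131242976, minus strand) encodes podocalyxin, a sialomucin of the cell surface, and rose from 268 and 320 to 30918 and 30299 (log2 fold change 6.70 ± 0.10). PMEPA1, a membrane adaptor that binds SMADs and dampens the signal, rose from 320 and 193 to 21675 and 21001 (6.42 ± 0.17). IL11, a cytokine gene tied to fibrosis, rose from 13 and 8 to 1045 and 869 (6.41 ± 0.22).

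The other largest rises started from SB values of 74 normalized counts or less. TNS1, encoding the adhesion protein tensin, went from 19 and 13 to 2316 and 1986. PCDH1, a protocadherin gene, went from 44 and 56 to 5561 and 4873. Both code for proteins of cell adhesion. The scaffold gene SHANK3 (1 and 5 to 434 and 363), the nucleotide receptor gene P2RY6 (4 and 2 to 330 and 244), KLHDC8A (74 and 28 to 3531 and 3513) and the nectin gene PVRL4, described with the junctions, were also among them. Without SB 1 or SB 2 the log2 fold change was 6.92 or 5.55 for KLHDC8A and 6.05 or 7.64 for SHANK3. Each rise named here was also called after 3 days, and each but that of KLHDC8A was called higher at 7 days than at 3 days.

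Among the largest falls were those of SCGB3A2, KRT75 and IGFBP1. SCGB3A2 (chr5:147250245-147261754, plus strand), a secretoglobin of airway cells, was at 414 and 642 in SB, 15 and 11 after 3 days and listed at 0 in both libraries after 7 days. KRT75 (chr12:52817854-52828155, minus strand), a type II keratin gene, was at 7309 and 7175 in SB, 147 and 153 after 3 days and 17 and 10 after 7 days. Its log2 fold change was -9.01 ± 0.20 (adjusted p = 3.92e-11). IGFBP1 (chr7:45927959-45933259, plus strand), whose product binds insulin-like growth factors, went from 3797 and 3993 to 59 and 59 and then 11 and 17 (-8.05 ± 0.20). These genes fell stepwise with no overlap between the 3 groups. HOPX, a homeodomain protein gene of the alveolar lineage, went from 3819 and 3854 to 271 and 255 and then 34 and 38 (-6.70 ± 0.14). GPR110, an adhesion receptor gene, went from 4963 and 5071 to 513 and 450 and then 40 and 39. The prostaglandin transporter gene SLCO2A1 went from 3490 and 3893 to 92 and 89 and then 39 and 53. ACOXL, KRT4, the keratin pseudogene KRT16P2, the noncoding gene SFTA1P and the surfactant genes SFTPA1 and SFTPB were the other large falls. The SB libraries of the 2 surfactant genes differed, as given with the lung lineage genes. Reads of KRT16P2 may be shared with its near-identical keratin gene, and those of SFTPA1 with SFTPA2.

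**Figure D2:**
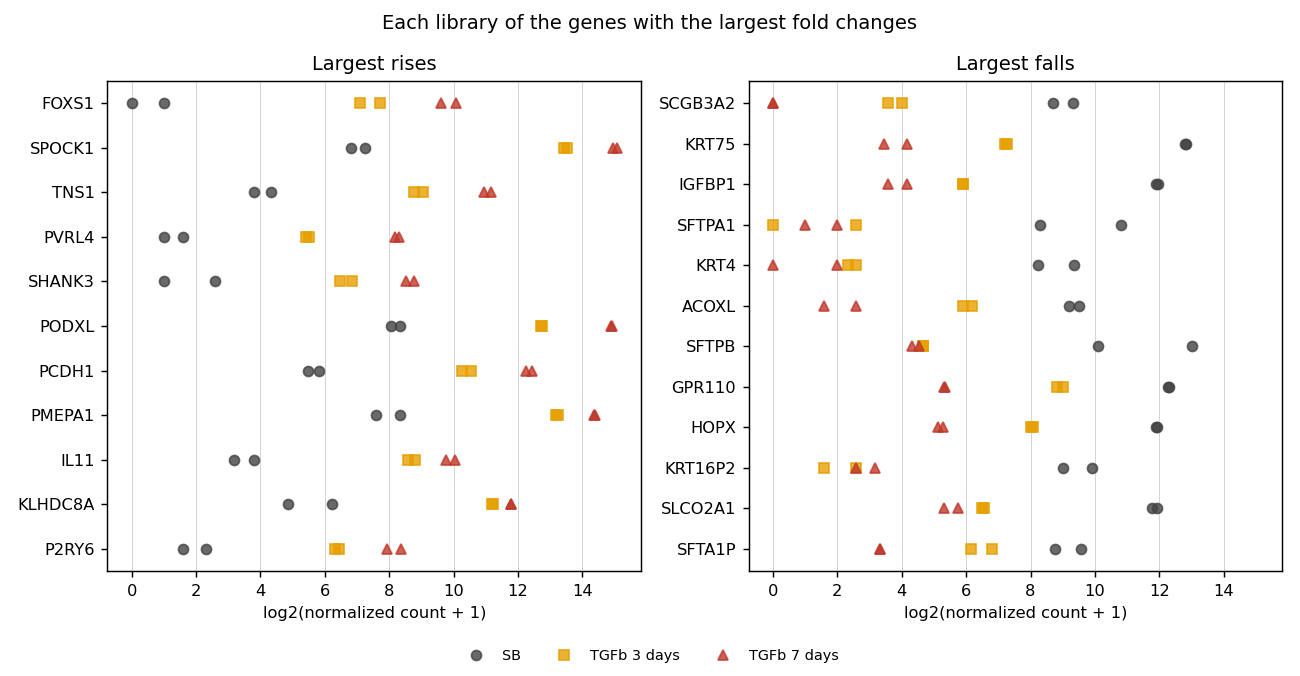
Each marker is 1 library of genes with the largest rises (left) and the largest falls (right) at a mean of at least 100, on a log2(normalized count + 1) axis. Circles are SB, squares TGFβ for 3 days and triangles TGFβ for 7 days, and the SB and 7-day markers do not overlap for any of the genes shown. The 2 SB circles of SFTPA1 and SFTPB lie far apart.

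The largest gains in normalized counts, which favour long and abundant transcripts, were mostly matrix genes. FN1 (chr2:216225163-216300796, minus strand) went from 162290 and 175381 in SB to 358867 and 364251 after 3 days and 558569 and 545523 after 7 days, a log2 fold change of 1.71 ± 0.08. TGFBI, an integrin-binding matrix protein gene named after its induction by TGFβ, went from 23141 and 21758 to 303620 and 307204 (3.77 ± 0.08). Both rose in steps, with no overlap between the 3 groups. VCAN (versican), MMP14 (a membrane-bound matrix metalloproteinase), THBS1 (thrombospondin 1), NT5E (the ecto-5′-nucleotidase CD73), PLAU (urokinase), PKM (pyruvate kinase) and SCD (a fatty acid desaturase) were among the other gains, with log2 fold changes from 0.54 for PKM to 4.31 for VCAN. Of these genes, SCD was not called after 3 days (0.21 ± 0.14).

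The largest losses in normalized counts were in housekeeping genes, by small folds. HSP90AA1, a cytosolic chaperone gene, went from 125068 and 109434 to 61291 and 66525 (-0.87 ± 0.09), and was not called after 3 days. NPM1 and NCL, which encode the nucleolar proteins nucleophosmin and nucleolin, fell by 0.89 and 0.84 on the log2 scale. HSP90AB1, TXNRD1, TUBA1B, ENO1, GAPDH, ANXA2 and IDS were the other losses, and IDS, a lysosomal sulfatase gene, had the lowest log2 fold change among them at -1.01. GAPDH (-0.41) was no longer called without the second 7-day library (-0.34). The most abundant genes that were not called were EEF1A1, ACTB, CAPN2, CANX and EIF4G2, with log2 fold changes from -0.19 to -0.03. Among them only ACTB was called in another comparison. It was at 162375 and 130452 in SB and 177096 and 202662 after 3 days (0.38, called higher), and was called lower at 7 days than at 3 days (-0.41). The largest fold changes that were not called were those of FOS, DHRS3, ASPHD1, CFB and PGM5P2. FOS, an immediate early gene, was at 194 and 122 in SB and at 991 and 140 after 7 days, and DHRS3, a retinal reductase gene, at 175 and 888 in SB and 789 and 671 after 7 days. For FOS 1 of the 7-day libraries lay between the SB libraries, and for DHRS3 both did. DHRS3 was at 39 and 44 after 3 days (called lower, -3.22), and was called higher at 7 days than at 3 days (4.10). DHRS3 was called higher without SB 2 (2.05) and was at -0.29 and not called without SB 1. The pseudogene PGM5P2 (-0.68) was called lower without SB 1 (-1.07) and not without SB 2 (-0.30). CFB, a complement factor gene, was at 208 and 1329 in SB, 121 and 125 after 3 days (called lower, -2.09) and 861 and 851 after 7 days. It was called higher at 7 days than at 3 days (2.79). Against SB, CFB at 7 days was called lower without SB 1 (-0.63) and higher without SB 2 (2.04).

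The genes were then read through 34 lists of pathway and cell function. The lists hold 970 distinct genes, of which 963 are in the table, 865 passed the filter of a mean of at least 10 and 98 did not. The counts below are to be read against the 27.7% of all genes called higher and the 26.9% called lower.

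**Figure D3:**
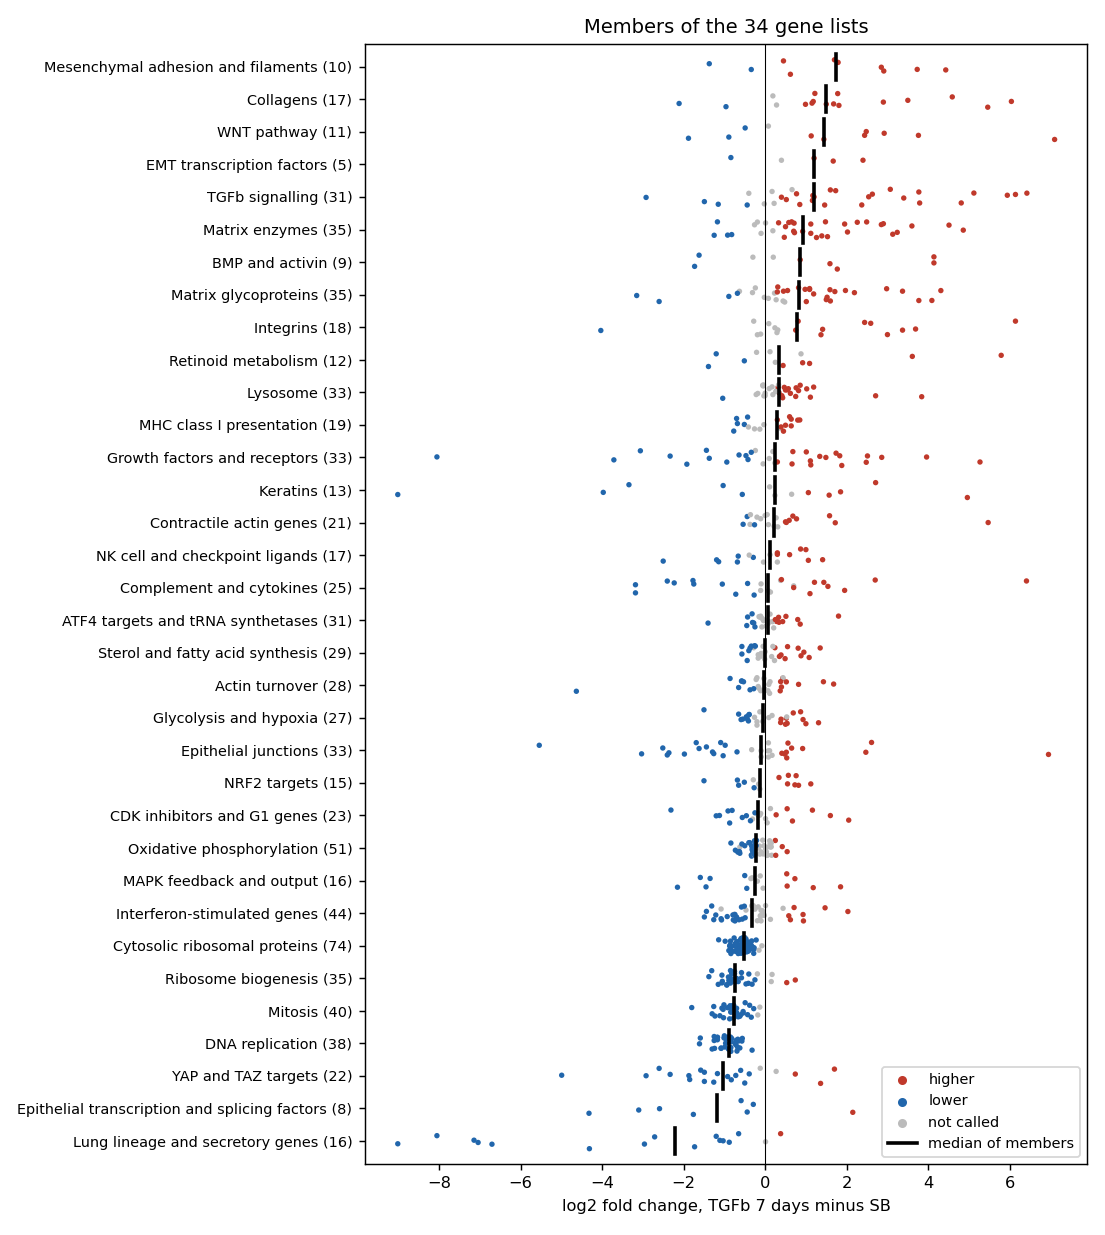
Each row is 1 of the 34 gene lists; points are the log2 fold changes of its tested members at 7 days over SB and the black tick is their median. The medians run from -2.22 for lung lineage genes to 1.74 for mesenchymal adhesion and filament genes, and no DNA replication or ribosomal protein gene was called higher.

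Within the TGFβ pathway, 22 of 31 genes tested were called higher and 4 lower, with a median log2 fold change of 1.20 (0.84 after 3 days). Of the ligands, TGFB1 rose from 431 and 481 to 2595 and 2153 (2.37 ± 0.14) and TGFB3 rose from 54 and 47 to 125 and 105, while TGFB2 fell from 872 and 834 to 98 and 128 (-2.92 ± 0.17). The receptor genes TGFBR1 (1.73), TGFBR2 (1.20) and the co-receptor gene ENG (1.60) rose, and TGFBR3, encoding betaglycan, was at 141 and 181 against 138 and 180. Among the signal transducers SMAD3 fell from 11488 and 10618 to 5101 and 4843 (-1.15 ± 0.08). The common partner SMAD4 was not called, at 1421 and 1391 against 1527 and 1635. Of the 9 feedback genes 7 rose, among them the inhibitory SMADs SMAD6 and SMAD7 and the co-repressor gene SKIL (1452 and 1608 to 15652 and 16727). SMAD7 was at 112 and 79 in SB, 916 and 799 after 3 days and 854 and 747 after 7 days, so its level at 7 days overlapped neither SB library but was not called different from 3 days. SMAD6 (chr15:66994574-67075187, plus strand) rose from 2 and 9 through 39 and 45 to 194 and 185 (5.12 ± 0.45, with 4.25 without SB 1 and 5.99 without SB 2) and was called different between 3 and 7 days.

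Of the 11 targets 9 rose. ITGB6, encoding the β6 subunit of an integrin that activates latent TGFβ, went from 13 and 22 to 1165 and 1374 (6.14 ± 0.21). LTBP2, a latent TGFβ binding protein gene, went from 242 and 261 to 16149 and 14884 (5.94 ± 0.11). The transcription factor genes BHLHE40 (3.79) and JUNB (2.63) rose as well. CTGF, also counted among the YAP and TAZ targets, was the 1 target that fell. In the BMP and activin branch 5 of 9 genes rose and 2 fell. BMP2 rose from 41 and 48 to 766 and 835, BMP4 fell from 238 and 246 to 66 and 79, and FSTL3, a secreted activin antagonist gene, rose from 172 and 152 to 3247 and 2539. ID1 and ID2, inhibitors of helix-loop-helix factors and targets of BMP, rose by 1.46 and 2.54, and ID3 was not called (-0.40 ± 0.18).

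The palindrome GTCTAGAC, a SMAD binding element, was found in the 300-base promoter window (250 bases before to 50 after the start) of 1 of the 27 tested members with a promoter in the RefSeq table, against 0.201% of the 27305 promoters. The member is SMAD6, shown for this match, which begins 12 bases before the start. The 250 bases before the start at GRCh38.p14 chr15:66701986-66702235, plus strand, are printed with the match in capitals.
SMAD6: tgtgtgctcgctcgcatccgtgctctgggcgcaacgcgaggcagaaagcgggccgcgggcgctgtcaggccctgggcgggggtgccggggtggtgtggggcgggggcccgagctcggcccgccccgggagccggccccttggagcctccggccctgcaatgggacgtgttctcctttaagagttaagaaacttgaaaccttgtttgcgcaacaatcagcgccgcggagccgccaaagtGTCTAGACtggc

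The transcription factors that repress epithelial genes rose moderately. SNAI1 went from 51 and 68 to 359 and 276 (2.40 ± 0.21), SNAI2 from 1640 and 1125 to 4227 and 4418 (1.67 ± 0.14) and ZEB1 from 2702 and 2567 to 5898 and 6223 (1.20 ± 0.08). TWIST2 was not called and FOXC2 fell (-0.84). ZEB2 and TWIST1 were not analysed here. Of 8 factors that maintain epithelial transcription and splicing, 7 fell and 1 rose, with a median of -1.18. ELF3 was at 1359 and 4388 in SB and 124 and 118 after 7 days, with a log2 fold change of -5.17 without SB 1 and -3.48 without SB 2. GRHL3 fell from 99 and 112 to 13 and 10 (-3.10 ± 0.31), and ESRP2, an epithelial splicing regulator gene, from 797 and 832 to 149 and 121 (-2.59 ± 0.15). The exception was ELF5, which rose from 3 and 4 to 13 and 27 (2.15 ± 0.51) and was not called without the second 7-day library (1.65).

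Junction genes split in both directions. Of 33 tested, 10 were called higher and 15 lower, with a median of -0.10 (with all library totals set equal the median of all genes moves by -0.05, so no direction is read for this list). The gene of E-cadherin, CDH1 (chr16:68771195-68869440, plus strand), fell from 371 and 635 to 28 and 24 after 3 days and 10 and 9 after 7 days (-5.54 ± 0.29). CLDN1, CLDN3 and OCLN, which encode tight junction proteins, fell by 1.98, 3.03 and 2.51 on the log2 scale, and EPCAM fell from 10180 and 9106 to 2988 and 3277. JUP, encoding the desmosome and adherens junction protein plakoglobin, rose instead, from 1271 and 1803 to 3186 and 4297 and then 9451 and 7419 (2.47 ± 0.18). PKP1, a desmosomal plakophilin gene, rose from 23 and 21 to 144 and 134, while PKP2 (-0.69) and PKP3 (-1.26) fell. PVRL4, encoding nectin-4, was at 1 and 2 in SB, 45 and 42 after 3 days and 312 and 292 after 7 days (6.95 ± 0.30). The catenin genes CTNNB1 and CTNNA1 were not called, with differences of 0.17 and -0.10. Losses and gains thus stood side by side within adherens junctions, desmosomes and tight junctions.

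Keratins also divided, with 5 of 13 called higher and 5 lower. KRT7, a simple epithelial keratin gene, rose from 5860 and 6183 to 13979 and 11230 (1.06 ± 0.12), KRT8 was not called (33960 and 39833 against 42692 and 36786) and its partner KRT18 fell from 47266 and 50793 to 34714 and 31757 (-0.56 ± 0.08). KRT80 fell from 3536 and 3862 to 240 and 230. The basal keratin gene KRT14 was listed at 0 in both SB libraries and stood at 41 and 22 after 7 days. KRT6A rose (16 and 15 to 48 and 48) and KRT6B fell (35 and 42 to 2 and 4), and reads of such near-identical copies may have been divided between them.

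The E-box CACCTG, which SNAI and ZEB factors are known to bind, was searched on both strands. It was found in the 300-base window of 7 of the 18 tested junction genes with a promoter (38.9%), against 20.6% of all promoters, 20.5% of those of genes with a log2 rise over 1 and 24.5% of those with a log2 fall beyond 1. PVRL4 is shown as the called junction gene with the most matches and, among those, the largest change, and it rose. Its 250 bases before the start lie at GRCh38.p14 chr1:161089559-161089808, minus strand, with the E-box in capitals.
PVRL4: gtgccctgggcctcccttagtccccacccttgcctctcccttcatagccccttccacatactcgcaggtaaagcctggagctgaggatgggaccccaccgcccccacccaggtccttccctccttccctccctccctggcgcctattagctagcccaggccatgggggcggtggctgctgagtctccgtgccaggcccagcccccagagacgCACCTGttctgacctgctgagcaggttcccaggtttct

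Mesenchymal adhesion and filament genes had the highest median of the lists, 1.74, with 8 of 10 called higher and 2 lower. L1CAM, an adhesion molecule gene, rose from 42 and 40 to 601 and 514 (3.73 ± 0.21). VIM, encoding vimentin, rose from 79130 and 60300 to 124252 and 120316 after 3 days and stood at 105320 and 107556 after 7 days (0.62 ± 0.11), and NES, encoding the filament protein nestin, rose from 1306 and 1709 to 5303 and 5026. CDH11, a mesenchymal cadherin gene, fell from 12245 and 15425 to 5223 and 5403 (-1.37 ± 0.10). FAP, a protease gene of activated fibroblasts, was at 4 and 0 in SB and 42 and 53 after 7 days (4.43 ± 0.64, with 5.59 without SB 1 and 3.27 without SB 2).

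Of 17 collagen genes 13 rose and 2 fell, with a median of 1.5. The fibril-regulating COL5A1 rose from 30 and 50 to 508 and 605 and then 2770 and 2465 (6.04 ± 0.20). COL6A3, a subunit of the beaded filaments of collagen VI, rose from 58 and 72 to 3017 and 2756 (5.46 ± 0.14), and its partners COL6A1 (0.99) and COL6A2 (1.18) rose less. COL15A1 (4.59), COL7A1 (3.50) and COL16A1 (2.90) rose too. COL1A1, encoding a chain of fibrillar collagen I, rose from 196 and 250 to 581 and 457 (1.22 ± 0.18). Its partner chain gene COL1A2 did not pass the filter, at 0 and 2 in SB and 4 and 0 after 7 days. COL12A1 fell from 108 and 118 to 23 and 28, and COL8A1 by 0.96 on the log2 scale.

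Of 35 matrix glycoprotein genes 22 rose and 4 fell. SPARC, a collagen-binding matricellular protein gene, went from 4070 and 3616 to 8226 and 8035 and then 29826 and 30749 (2.98 ± 0.08). MFAP2, a microfibril gene, rose from 153 and 210 to 3355 and 2811 (4.09 ± 0.16). LTBP3, whose product holds latent TGFβ in the matrix, was at 1035 and 2126 in SB, 851 and 1133 after 3 days and 7557 and 6058 after 7 days, so it was called at 7 days (2.19 ± 0.26) and not after 3 days. TNC, encoding tenascin-C, fell from 41564 and 46401 to 24503 and 23029 (-0.89 ± 0.09). LAMA3 and LAMB3, which encode laminin chains of the epithelial basement membrane, each rose by 1.09 on the log2 scale.

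Matrix enzymes rose in 26 of 35 cases and fell in 4. Of the 10 metalloproteinases 7 rose, among them MMP9 (5 and 7 to 228 and 176), MMP2 (2 and 7 to 38 and 31, with log2 fold changes of 2.14 without SB 1 and 3.56 without SB 2) and MMP14 (24795 and 21290 to 135615 and 122833). ADAMTS6 went from 44 and 79 to 1353 and 1375 (4.51 ± 0.21), ADAM19 from 1187 and 1398 to 16193 and 15054 (3.60 ± 0.10) and BMP1, which trims procollagens, from 369 and 432 to 3106 and 2860 (2.90 ± 0.12). The inhibitor genes TIMP1 (1.39), TIMP2 (2.26) and TIMP3 (0.50) rose alongside the proteases. P4HA3, a collagen prolyl hydroxylase gene, rose from 88 and 60 to 667 and 722. The crosslinking enzyme gene LOX fell from 13939 and 10091 to 6206 and 6298 (-0.92 ± 0.13). The plasminogen activators went apart, with PLAU rising from 23751 and 19992 to 63475 and 62583 and PLAT falling from 16815 and 21583 to 8763 and 8166.

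The integrin receptors for this matrix rose in 10 of 18 cases and fell in 1. ITGA5, the α5 subunit of the fibronectin receptor, went from 4799 and 4547 to 27317 and 30528 and then 39579 and 35111 (3.00 ± 0.09), and its partner ITGB1 from 21386 and 18868 to 51760 and 54880 (1.41 ± 0.09). ITGB3 rose from 272 and 386 to 4225 and 4184 (3.69 ± 0.14) and the collagen receptor subunits ITGA10 (3.37) and ITGA11 (2.44) also rose. The β2 subunit gene ITGB2, a leukocyte integrin, was the 1 that fell, from 66 and 63 to 1 and 7. ITGA2, ITGB4 and ITGB5 were not called, at -0.19, 0.29 and -0.11.

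Of 21 contractile actin genes tested, 8 rose and 3 fell, and their median was 0.22. After 3 days 12 were called higher and 2 lower, with a median of 0.37. ACTA2, the smooth muscle actin gene of myofibroblasts, was at 56 and 43 in SB and 33 and 43 after 7 days (-0.37 ± 0.27) and was not called. TAGLN, another smooth muscle marker, was at 75 and 92 against 119 and 90. TPM1, a tropomyosin gene, rose from 2670 and 2084 to 7497 and 8027 (1.72 ± 0.11) and CALD1, encoding caldesmon, from 1162 and 1198 to 3426 and 3653. MYLK2, a kinase gene for myosin light chain, rose from 44 and 53 to 2233 and 2133 (5.47 ± 0.14), whereas its relative MYLK (chr3:123328896-123603179, minus strand) fell from 6337 and 5661 to 4082 and 4173 (-0.54 ± 0.09). Of 28 actin turnover genes 8 rose and 8 fell. GSN, encoding the severing protein gelsolin, rose from 4457 and 5338 to 16728 and 14544 (1.68 ± 0.12) and its relative AVIL rose from 554 and 690 to 1605 and 1723, while SCIN, encoding the related scinderin, fell from 3195 and 3983 to 690 and 614 and then 146 and 140 (-4.63 ± 0.13). Members of 1 severing family thus changed in opposite directions. The formin genes DIAPH1 (-0.58) and DIAPH3 (-0.65) and the profilin gene PFN1 (-0.57) fell, and PFN2 rose (0.52).

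The CArG box, the site of the serum response factor, was found in the window of 3 of 18 tested contractile genes with a promoter (16.7%), against 1.29% of all promoters. They are CNN2, TPM4 and MYLK. For MYLK the start in the RefSeq table lies 263784 bases inside the 5′ end of the gene, so its match is at an internal start and no sequence is printed for it.

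Targets of YAP and TAZ, co-activators that respond to cell shape and tension, stood lower at 7 days. Of 22 tested, 17 fell and 3 rose, and the median was -1.04, against 0.18 after 3 days of TGFβ and -0.62 between 7 and 3 days. ANKRD1 was at 258 and 108 in SB, 173 and 138 after 3 days and 3 and 6 after 7 days (-4.99 ± 0.39, with -4.36 without SB 1 and -5.61 without SB 2). CYR61, a matricellular protein gene, was at 11080 and 5910 in SB, 15074 and 14686 after 3 days and 1408 and 1262 after 7 days. CTGF, its relative, was at 3032 and 1724, then 4608 and 3657, then 881 and 751. In CYR61 and CTGF the 3-day libraries were the highest and the 7-day libraries the lowest, with no overlap between groups. AXL, a receptor kinase gene, was at 4395 and 3179 in SB, 4161 and 4344 after 3 days and 1080 and 961 after 7 days (-1.87 ± 0.13), and AMOTL2, which encodes a YAP-binding motin, had the same course. The 3 that rose were NT5E, ARHGEF17 and PTPN14.

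**Figure D4:**
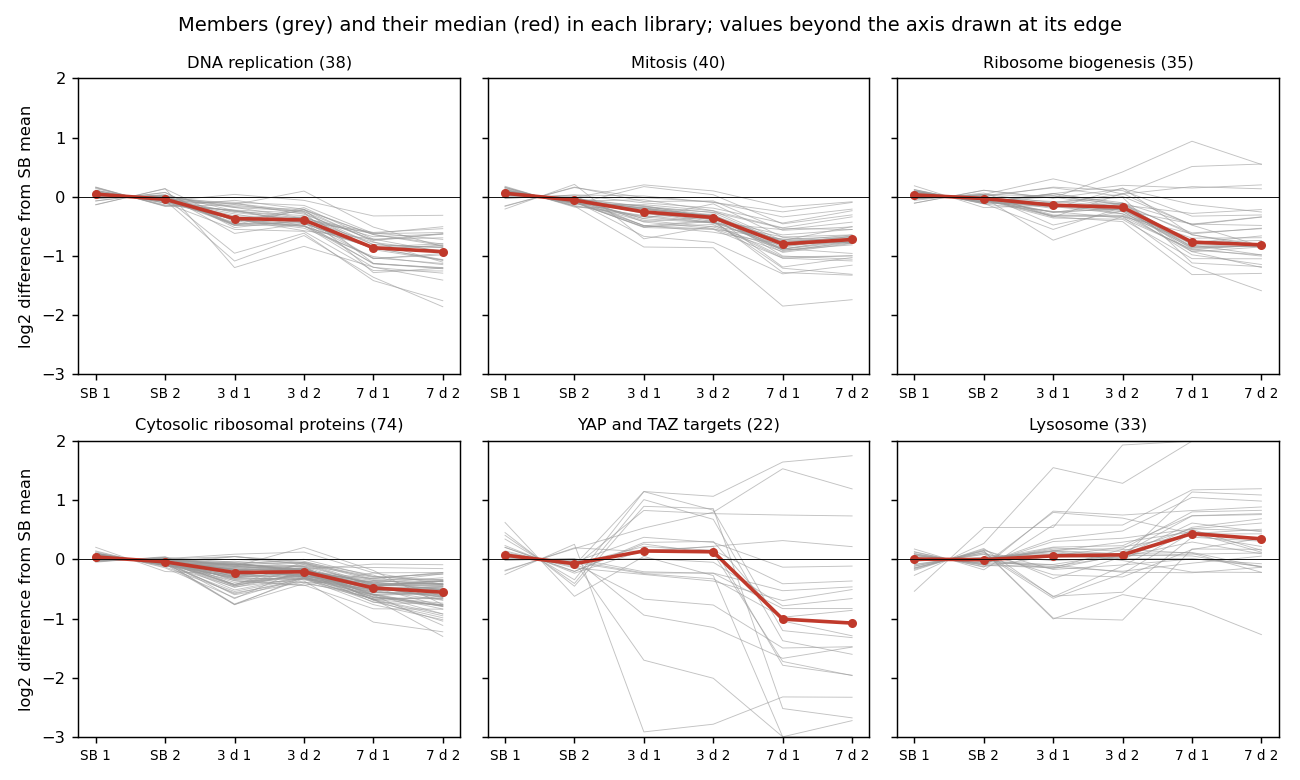
In each panel a grey line is 1 gene of the list and joins its values in the 6 libraries, given as the difference of log2(normalized count + 1) from the SB mean, and red is the median of the members; the lines join libraries that have no order within a group, and values beyond the axis are drawn at its edge. Replication, mitosis and ribosome lists step down from SB to 3 days and again to 7 days, the median of YAP and TAZ targets is low in the 7-day libraries only, and lysosome genes are high in them.

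Feedback and output genes of the MAPK cascade split, with 5 of 16 higher and 6 lower. Of the 9 feedback genes, phosphatases and Sproutys, 2 were higher and 4 lower. DUSP5, a phosphatase gene for ERK, fell from 4835 and 4879 to 1811 and 1735 and SPRY1, a receptor kinase inhibitor gene, from 1467 and 1306 to 312 and 311 (-2.15 ± 0.12), while DUSP4 rose from 423 and 495 to 1590 and 1714 (1.85 ± 0.12). DUSP6 was at 11683 and 11449 in SB, 6104 and 6289 after 3 days and 10336 and 9939 after 7 days, and was not called at 7 days. FOSL1, an AP-1 factor gene downstream of ERK, fell from 17421 and 10815 to 4712 and 4433.

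Growth factor families changed in different directions. Of 9 EGF family genes 6 fell and 1 rose. EREG, encoding epiregulin, fell from 15859 and 23088 to 4909 and 5217 (-1.92 ± 0.14), AREG from 26 and 50 to 1 and 3 and NRG1 from 617 and 353 to 58 and 52 (-3.06 ± 0.23). EGF itself rose from 324 and 319 to 824 and 805. The receptor gene EGFR was not called, at 8011 and 8697 against 9385 and 9630. Of 7 PDGF and VEGF genes 5 rose and none fell, among them PDGFA (302 and 211 to 1570 and 1322) and the receptor gene PDGFRB (21 and 17 to 354 and 270). In the IGF family IGFBP5 went from 3 and 12 to 276 and 280 (5.27 ± 0.50, with 4.42 without SB 1 and 6.12 without SB 2) and IGFBP6 from 1839 and 2045 to 5819 and 5079, while IGFBP1, IGFBP2, IGFBP3 and IGFBP4 fell, the last by 0.34 on the log2 scale and no longer called without SB 1 (-0.20). IGFBP5 was at 5 and 11 after 3 days, between its 2 SB values. Of 11 WNT genes 7 rose and 3 fell. WNT5B was listed at 0 in both SB libraries and stood at 145 and 128 after 7 days, WNT5A rose from 428 and 299 to 2594 and 2824 (2.92 ± 0.15) and TCF7, a transcription factor gene of the pathway, from 145 and 128 to 1894 and 1835 (3.76 ± 0.13). AXIN2, a general WNT target, rose from 8 and 18 to 76 and 68. DKK1, a secreted WNT inhibitor gene, rose from 1597 and 1515 to 4115 and 4327.

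Cell cycle genes fell together. All 38 DNA replication genes tested were called lower, with a median of -0.88, and 38 of 40 mitosis genes were called lower and none higher, with a median of -0.77. The helicase genes MCM2 to MCM7 fell by 0.67 to 0.97 on the log2 scale. TK1, a thymidine kinase gene, fell from 3599 and 3533 to 1333 and 1053 (-1.59 ± 0.13), RRM2, a ribonucleotide reductase gene, from 21102 and 16950 to 7765 and 8191 and CDT1, a licensing factor gene, from 974 and 892 to 362 and 256. UBE2C, an enzyme of mitotic exit, fell from 18277 and 14679 to 9082 and 9004 and then 4543 and 4897 (-1.80 ± 0.10). AURKB (-1.30), CDC20 (-1.26) and BUB1 (-1.23) were among the other large falls, and KIF14 and ASPM were not called (-0.13 and -0.18). The proliferation marker MKI67 fell from 23254 and 29137 to 17553 and 18266 (-0.54 ± 0.10), less than most members. Transcripts of the cycle were lower by under 2-fold in most of these genes, and the lowest level after 7 days was that of the polymerase gene POLD1 at 198 and 170.

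Among the inhibitors, CDKN2B, a classical TGFβ target encoding p15, rose from 325 and 295 to 825 and 841 and then 1278 and 1294 (2.05 ± 0.11). CDKN1A, encoding p21, rose from 1253 and 1184 to 3840 and 3530 (1.60 ± 0.09). CDKN1B was not called, at 1521 and 1641 against 1432 and 1456, and CDKN2C (-0.91) and CDKN1C fell, the latter from 34 and 39 to 13 and 18 and not called without the first 7-day library (-0.98). E2F1 (-0.87), E2F2 (-2.31) and E2F8 (-0.81) fell, whereas E2F7, a repressor of the family, rose from 6151 and 4634 to 12023 and 11837 (1.16 ± 0.11). CCND1, encoding cyclin D1, rose from 22730 and 20496 to 32017 and 30799 (0.54 ± 0.08).

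TTTGAA, the core of the cell cycle homology region, was found in the window of 24 of 34 tested mitosis genes with a promoter (70.6%), against 15.4% of all promoters, and CCAAT in 27 of 34 (79.4%) against 35.7%. The E2F sites TTTCCCGC and TTTGGCGC were found in 10 and 6 of 34 tested replication genes (29.4% and 17.6%), against 1.66% and 0.659%. CDC20 (GRCh37 chr1:43824652-43828874, plus strand) is shown for TTTGAA at 178 and 65 bases before the start, and MCM6 (chr2:136597196-136634013, minus strand) for the E2F sites at 152 and 90. The 250 bases lie at GRCh38.p14 chr1:43358731-43358980, plus strand, and chr2:135876444-135876693, minus strand, with matches on either strand in capitals.
CDC20: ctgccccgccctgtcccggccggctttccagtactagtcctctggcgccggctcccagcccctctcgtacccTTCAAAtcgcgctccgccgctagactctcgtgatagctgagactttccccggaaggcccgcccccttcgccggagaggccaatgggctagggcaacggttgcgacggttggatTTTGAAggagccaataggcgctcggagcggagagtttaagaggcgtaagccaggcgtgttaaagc
MCM6: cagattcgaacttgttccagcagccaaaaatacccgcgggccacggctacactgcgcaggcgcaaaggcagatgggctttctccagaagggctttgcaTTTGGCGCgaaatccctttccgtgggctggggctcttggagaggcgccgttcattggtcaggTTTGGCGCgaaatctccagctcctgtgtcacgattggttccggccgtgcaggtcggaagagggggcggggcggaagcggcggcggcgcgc

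The machinery that makes ribosomes fell as well. All 23 nucleolar processing genes were called lower. BOP1 fell from 952 and 931 to 416 and 312 (-1.38 ± 0.16) and TCOF1 from 6708 and 6994 to 3466 and 3093. MYC, which drives these genes in growing cells, fell from 16285 and 13846 to 6907 and 6614 (-1.15 ± 0.09) and had stood at 14016 and 14898 after 3 days. Its antagonists MXI1 (0.53) and MXD4 (0.74) rose, MXD1 fell (-0.41, and -0.34 and not called without the first 7-day library), and the shared partner MAX was not called. Of 74 cytosolic ribosomal protein genes 71 were called lower and none higher, with a median of -0.51. RPS2 had the lowest value (-1.14 ± 0.11), and RPL15, RPL17 and RPL37A were not called. Ribosomal protein genes have many processed copies, so single values are uncertain.

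Energy metabolism changed by small steps. Of 51 oxidative phosphorylation genes 24 fell and 4 rose with a median of -0.22. The 28 calls of this list went down to 12 when 1 library was left out (the second 7-day library), 14 without the first 7-day library and 17 without SB 1. The members that fell included ATP5B (51555 and 44512 to 31694 and 32963). In glycolysis HK2, a hexokinase gene, fell from 6723 and 7467 to 2622 and 2389 (-1.5 ± 0.09) while HK1 rose by 0.38 and PKM by 0.54. Of 8 hypoxia genes 5 rose, led by NDRG1 (3626 and 4110 to 9813 and 9336). Sterol synthesis genes showed no common direction, with 10 of 29 sterol and fatty acid genes higher and 8 lower. The desaturase genes SCD (1.08) and FADS2 (1.35) and the enzyme gene ACLY (0.81), which makes cytosolic acetyl-CoA, were called higher. Among ATF4 targets DDIT4, an mTOR inhibitor gene, was at 1353 and 2164 in SB, 1544 and 1640 after 3 days and 6154 and 5783 after 7 days (1.80 ± 0.17), and 9 of 12 tRNA synthetase genes were not called. The 17 calls of the ATF4 and tRNA synthetase list went down to 5 without the second 7-day library, 9 without SB 1 and 10 without the first 7-day library. Of 15 NRF2 targets 7 rose and 5 fell. HMOX1, encoding heme oxygenase, rose from 737 and 520 to 1450 and 1254, and GCLC, the catalytic subunit of glutathione synthesis, fell from 18615 and 15497 to 5833 and 6166 (-1.5 ± 0.10) while its modifier subunit GCLM rose from 5935 and 4290 to 8202 and 8585.

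Lysosomal genes rose in 18 of 33 cases and fell in 1, with a median of 0.34 at 7 days and 0.06 after 3 days. CTSB, encoding the protease cathepsin B, was at 29807 and 33418 in SB, 31073 and 32360 after 3 days and 69553 and 67136 after 7 days (1.11 ± 0.08). CTSA (1.02), TPP1 (0.82), GLB1 (0.76) and HEXA (0.75) rose as well. TFEB, a transcription factor gene for lysosome formation, went from 8 and 18 through 18 and 49 to 206 and 169 (3.84 ± 0.45), and GABARAPL1, an autophagosome protein gene, from 200 and 291 to 1592 and 1576 (2.71 ± 0.17). SGSH was the 1 gene of the list that fell, and the lysosomal sulfatase gene IDS, which is not on the list, fell as well (-1.01). The genes of the proton pump, ATP6V0A1, ATP6V0D1, ATP6V1A and ATP6V1H, were not called. For CTSB the SB and 3-day libraries overlapped, and both 7-day libraries stood above them.

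Lung lineage genes had the lowest median of the lists, -2.22, with 14 of 16 called lower and 1 higher. SB 2 was above SB 1 in 15 of these 16 genes. Without SB 1 the list had 14 lower and none higher with a median of -2.56, and without SB 2 it had 14 lower and 1 higher with a median of -1.70. NKX2-1, the lineage factor gene of the distal lung, fell from 2784 and 2908 to 853 and 857 (-1.73 ± 0.10), and FOXA2 from 490 and 642 to 68 and 75 (-2.96 ± 0.20). SOX2, a stem cell and airway factor gene, fell from 1552 and 2658 to 626 and 569 and stood at 942 and 1049 after 7 days. SOX9, a factor of distal progenitors, was the 1 gene called higher, at 1835 and 2305 in SB, 1233 and 1365 after 3 days and 2591 and 2769 after 7 days (0.38 ± 0.12), and was not called without SB 1 (0.22). SFTPB, encoding surfactant protein B, was at 1104 and 8273 in SB and 22 and 19 after 7 days (-7.14 ± 0.63), so its log2 fold change was -8.59 without SB 1 and -5.69 without SB 2. SFTPA1 was at 311 and 1799 in SB against 1 and 3 (-9.31 without SB 1 and -6.79 without SB 2), and SFTPA2, at 41 and 410 in SB, was listed at 0 in both libraries after 7 days. AGER, a marker of flat alveolar cells, was not called (203 and 255 against 232 and 225).

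**Figure D5:**
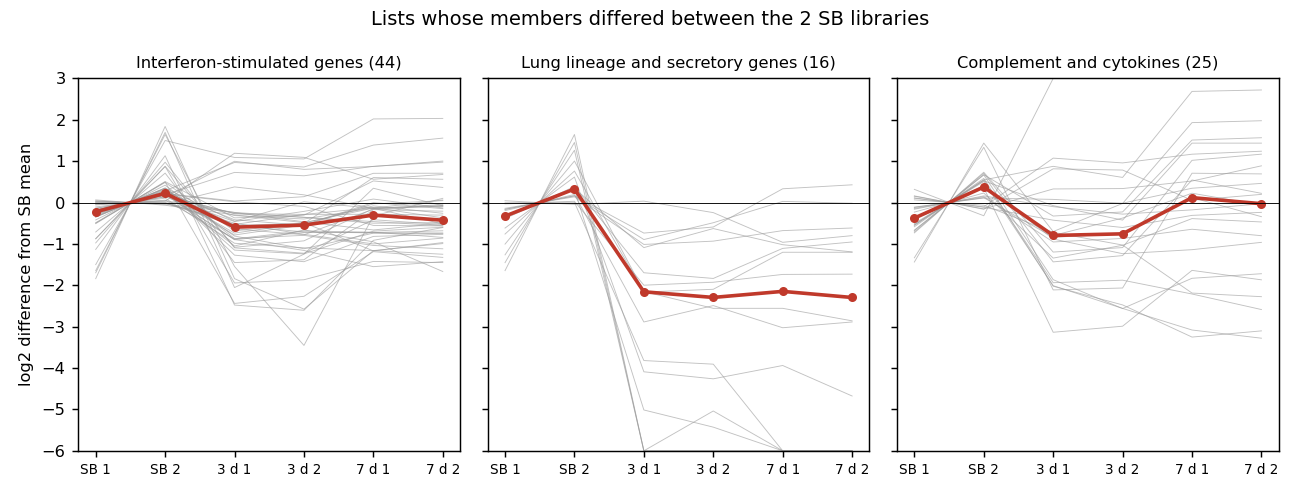
Lists whose members differed between the 2 SB libraries, drawn as in the plot of lists by library, with grey lines for genes and red for the median; values under -6 or over 3 are drawn at the edge. Most interferon-stimulated genes (39 of 44) and lung lineage genes (15 of 16) stand higher in SB 2 than in SB 1, and the median of the lung lineage genes is low in all 4 TGFβ libraries.

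Interferon-stimulated genes depended on the SB library. Of 44 tested, 23 were called lower and 4 higher after 3 days against SB, with a median of -0.62. Between 7 and 3 days 14 were called higher and 5 lower. At 7 days against SB, 18 were called lower and 7 higher, with a median of -0.31. SB 2 was above SB 1 in 39 of 44. Without SB 1 the counts were 28 lower and 6 higher (median -0.70), and without SB 2 they were 16 lower and 13 higher (median 0.04), so no direction of the list as a whole is read. Falls that stood against both SB libraries included IFIT2, an antiviral RNA-binding protein gene (937 and 1216 to 364 and 396, -1.49 ± 0.15), and HERC5, a ligase gene for ISG15 (516 and 472 to 219 and 252, -1.07 ± 0.14). The sensors DDX58 (-0.58), IFIH1 (-0.74), MB21D1 (-0.51) and TMEM173 (-0.78), which encode RIG-I, MDA5, cGAS and STING, all fell, though IFIH1 was not called without SB 2 (-0.39). SAMD9L, an antiproliferative factor gene, rose from 637 and 945 to 2034 and 2286 (1.47 ± 0.16), and STAT2 rose by 0.71. IFI27 was at 40 and 430 in SB and 168 and 125 after 7 days and OAS1 at 60 and 292 against 70 and 87, and neither was called. IFI27 was called lower without SB 1 (-1.56) and higher without SB 2 (1.83). OAS1 was called lower without SB 1 (-1.89) and was at 0.37 and not called without SB 2.

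The core of the interferon-stimulated response element, GAAA followed after any 2 bases by GAAA, was found in the window of 19 of 32 tested interferon-stimulated genes with a promoter (59.4%), against 3.65% of all promoters. HERC5 (GRCh37 chr4:89378270-89427314, plus strand) is shown for its 3 overlapping or neighbouring matches, at 125, 119 and 74 bases before the start. The bases lie at GRCh38.p14 chr4:88456869-88457118, plus strand, with matches in capitals.
HERC5: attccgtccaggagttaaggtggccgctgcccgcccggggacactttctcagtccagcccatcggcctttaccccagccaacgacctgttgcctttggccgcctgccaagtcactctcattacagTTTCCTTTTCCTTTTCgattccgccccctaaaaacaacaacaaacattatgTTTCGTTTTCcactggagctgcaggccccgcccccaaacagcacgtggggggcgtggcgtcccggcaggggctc

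MHC class I presentation genes were called higher in 9 of 19 cases and lower in 5, with a median of 0.30. This median was -0.02 without SB 1 and 0.29 without SB 2. The heavy chain genes HLA-B (4607 and 7340 to 10448 and 9795) and HLA-C (3703 and 4667 to 6569 and 6067) and the light chain gene B2M (61251 and 73393 to 85149 and 90935) rose. Reads of the closely related heavy chain genes may be divided among them. After 3 days HLA-B stood at 4111 and 4295 and B2M at 54023 and 49531, below their values at 7 days. The peptide transporter genes TAP1 (-0.77) and TAP2 (-0.51) and the immunoproteasome genes PSMB8 (-0.70) and PSMB9 (-0.43) fell, with PSMB9 not called without SB 2 (-0.23). ERAP1 (0.45) and ERAP2 (0.64), which trim peptides for loading, rose, and HLA-G, a heavy chain gene otherwise known from the placenta, fell (-0.68, and -0.54 and not called without SB 2). B2M was not called without the second 7-day library (0.34).

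Ligands seen by NK cells and T cells changed in both directions. CD274, encoding PD-L1, fell from 2246 and 1962 to 1444 and 1343 and then 347 and 394 (-2.50 ± 0.12). NCR3LG1, the B7-H6 ligand of an activating NK receptor, fell from 2302 and 2829 to 1209 and 1110, and PVR fell by 0.68 on the log2 scale. The NKG2D ligand genes ULBP1 (183 and 203 to 476 and 555) and ULBP2 (383 and 355 to 777 and 766) rose, MICA rose by 0.30 and MICB fell by 0.29. MICA was not called without SB 2 (0.21) nor MICB without SB 1 (-0.19). CD58, an adhesion ligand gene for CD2, rose from 1762 and 1824 to 3454 and 3746 (1.0 ± 0.09). The death receptor gene FAS fell (-1.19) and TNFRSF10B, encoding a TRAIL receptor, rose (0.87).

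Among cytokines, 9 of 15 fell and 4 rose. In the joint list of 25 complement and cytokine genes 13 were called lower and 3 higher after 3 days against SB, with a median of -0.80. Between 7 and 3 days 11 were called higher and 4 lower. SB 2 was above SB 1 in 19 of the 25. At 7 days against SB the median of this list was -0.26 without SB 1 and 0.06 without SB 2, so no direction of it as a whole is read. CXCL8, a neutrophil chemokine gene, was at 1974 and 4438 in SB, 728 and 532 after 3 days and 310 and 344 after 7 days (-3.18 ± 0.28, with -3.76 without SB 1 and -2.59 without SB 2). CSF2, CXCL1, CXCL2 and CCL20 also fell, and SB 2 was above SB 1 in the first 3 of these. Of 10 complement genes 5 rose and 1 fell. CD59, which blocks the lytic complex on the cell surface, rose from 17679 and 15303 to 36983 and 38882 (1.21 ± 0.09), and C1S from 21 and 46 to 206 and 211. CFI, a complement inactivator gene, was at 654 and 1808 in SB and 2207 and 2448 after 7 days (1.10 ± 0.32, with 0.36 without SB 1 and 1.83 without SB 2). In retinoid metabolism STRA6, the receptor gene for retinol uptake (chr15:74471807-74504608, minus strand), rose from 37 and 95 to 414 and 543 and then 3667 and 3031 (5.79 ± 0.32, with 5.12 without SB 1 and 6.46 without SB 2). The retinoic acid degrading enzyme gene CYP26B1 rose from 156 and 214 to 406 and 375, while CRABP2, at 478 and 1311 in SB, fell to 336 and 354 (-1.20, and -0.47 and not called without SB 2). STRA6 was above SB in all 4 TGFβ libraries.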

How the data were processed

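RNA of H2087-LCC cells was sequenced in 6 libraries, 2 per group. The authors checked reads with FastQC 0.11.5, mapped them to hg19 with STAR, counted those with a unique position per gene in HTSeq 0.6.1p1 and scaled the counts for library size with DESeq2. The deposited values, recorded here under the unit score, are these normalized counts rounded to whole numbers, so no count model was fitted. The kit does not mark strand, so reads of overlapping genes cannot be told apart, and the annotation release is not given in the sources used here. No column was left out.

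log2(normalized count + 1) was fitted, for the 14395 genes whose mean reached 10, with limma 3.58.1 in R 4.3.3 (1 term for the group, 6 libraries, empirical Bayes with a trend, Benjamini-Hochberg at 0.05). Fold changes understate the change of low genes because of the added 1. A gene listed at 0 in both libraries of a group was given no fold. On simulated data for TGFβ 7 days against SB with 14425 genes tested, 176 of 200 changed genes and 11 unchanged genes were called.

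Named genes were the members of the lists, the 12 largest rises and falls at a mean of at least 100, the 10 largest gains and losses in normalized counts, and, among genes not called, the 5 most abundant and the 5 with the largest fold changes. Some of these genes are not reported here. Members and lists were chosen with earlier results of these data known. Of 21293 symbols 18435 were current gene names, 1352 were matched through RefSeq synonyms and 1506 were unmatched, and 27 had been turned into dates or numbers. Gene coordinates on GRCh37 came from GENCODE. Promoters came from RefSeq on GRCh38.p14, with 11027 of 14395 genes matched. Motifs were searched on both strands. Of the tested genes with a promoter, 9.2% had the table's start over 1000 bases inside the gene's 5′ end. Printed promoters belong to the called member with the most matches and, among those, the largest change, and end at the gene's 5′ end. Alternatives were pseudocounts of 0.5 and 5, other filters, scalings and fits, the replicate number as a block and each library left out. Figures were drawn with matplotlib 3.10.9.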

Additional observations from a re-analysis of the deposited data

Results flagged for a closer look

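Of the 865 list members tested, 17 (1.97%) were called in opposite directions after 3 and 7 days of TGFβ against SB and were also called different between 7 and 3 days, against 63 of all genes tested (0.438%). The difference between the time points was tested in the same limma fit, and both comparisons with SB share the SB libraries. Values are log2 fold changes of 7 days over 3 days.

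7 genes stood above SB after 3 days and below it after 7 days. CYR61 (-3.48), CTGF (-2.33) and F3 (-2.25) are YAP and TAZ targets, and F3 encodes tissue factor. DKK3, a secreted protein gene of the WNT inhibitor family, had -3.26 and went from 142 and 139 in SB through 402 and 334 to 39 and 36. IGFBP4 had -0.83, KLF4, an epithelial transcription factor gene, -0.59 and SRXN1, a sulfiredoxin gene, -0.54.

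10 genes stood below SB after 3 days and above it after 7 days. CFI had 2.24, HLA-B 1.27, B2M 0.77 and UBE2L6, a conjugating enzyme gene for ISG15, 1.11. VEGFA, encoding a vascular growth factor, had 1.27 and was at 10129 and 11475 in SB, 6811 and 7487 after 3 days and 17681 and 16845 after 7 days. SOX9 had 1.05 and VLDLR, a lipoprotein receptor gene, 1.02. PSAP, a precursor of lysosomal saposins, had 0.93, F11R, a tight junction protein gene, 0.75 and LOXL2, a lysyl oxidase gene, 0.66. Of the 17, the call at 7 days was lost without SB 1 for SOX9, UBE2L6, VLDLR, IGFBP4, KLF4 and SRXN1, and without SB 2 for LOXL2.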

How the results depend on the processing

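The 7851 calls at 7 days against SB were 7084 to 7878 under other pseudocounts, filters, scalings and fits, and 5913 to 7687 with 1 library left out (2992 to 3958 higher and 2921 to 3809 lower). With equal library totals the split was 3600 higher and 4256 lower. Asking also for an absolute log2 fold change over 1 left 2400 genes, 1414 higher and 986 lower. It left 1267 of the calls at 3 days against SB and 940 of those between 7 and 3 days. Without this demand there were 4170 calls at 3 days against SB and 4775 between 7 and 3 days. These 2 counts were 2609 to 3877 and 2314 to 5554 with 1 library left out, the second also 3042 without a filter and 3122 without the trend. A fit of only the 4 libraries compared gives no value for them. The replicate number did not pair the libraries (correlations of deviations 0.140, -0.100 and -0.292), and a fit with it as a replicate block called 7546 genes, 7440 of them also called without it.

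Of 544 counts for the lists, 534 were within 1.5 times. Keratins had 6 calls at a mean of at least 50, oxidative phosphorylation 15 without the trend and 12 to 25 with 1 library left out, sterol and fatty acid synthesis 11 without the trend, and the ATF4 list 11 without the trend and 5 to 17 with 1 library left out. Among the 302 named genes, several log2 fold changes changed sign when 1 SB library was left out. CFB was at 0.7 with all libraries, -0.63 without SB 1 and 2.04 without SB 2. In the same order IFI27 was at 0.13, -1.56 and 1.83, DHRS3 at 0.88, -0.29 and 2.05, and OAS1 at -0.76, -1.89 and 0.37. Genes with a fold change near the zero line, such as CTNNB1 and ACTB, changed sign as well. In the 250 upstream bases alone CACCTG was in 33.3% of the promoters of junction genes against 17.5% of all promoters, TTTGAA in 55.9% of those of mitosis genes against 13.6%, and CCAAT in 79.4% against 33%. TTTCCCGC was in 26.5% of those of replication genes against 1.42%, and TTTGGCGC in 8.82%, 3 of 34 rather than 6, against 0.553%. The core of the interferon-stimulated response element was in 50% of those of interferon-stimulated genes against 3.07%, and the CArG box in 16.7% of those of contractile genes against 1.14%. The cause of these moves was not tested. Depth limits genes with a mean of 10 to 100 normalized counts most, of which 40.2% were called.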
